A study of Bos taurus with 10 samples.

Results

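The genes described here encode 7 enzymes of cholesterol synthesis: *HMGCS1*, *MVD*, *FDPS*, *FDFT1*, *SQLE*, *LSS* and *CYP51A1*. They were measured by 12 of the 24016 probe sets tested on the Affymetrix bovine array, taken by the single gene symbol of each probe set. An 8th enzyme, *IDI1*, which interconverts the isoprene units, had no probe set under its symbol and was not analysed here. The samples were 5 pools of immature bovine oocytes and 5 pools of in vitro matured (IVM) oocytes, with 1 pool per array. All oocytes came from cumulus-oocyte complexes aspirated from follicles of 3 to 8 mm on ovaries of slaughtered cows. Immature oocytes were stripped of cumulus cells and frozen at 0 h. IVM oocytes were stripped after 24 h of culture at 39°C with 10% fetal calf serum and 10 ng/ml of epidermal growth factor. The number, age and breed of the cows behind a pool are not given. From each pool 100 ng of total RNA was amplified, so a value is relative to the RNA of its pool. In such pools, RNA from fewer cells of a type and less RNA per cell cannot be told apart. To avoid a possible bias from poly(A) tail length, the paper used random primers in its qPCR time course. On these arrays, a change in tail length and one in transcript number cannot be told apart either.

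Cells build cholesterol from acetyl-CoA. *HMGCS1* makes the precursor of mevalonate, *MVD* decarboxylates a mevalonate phosphate to the first isoprene unit, and *FDPS* joins isoprene units into farnesyl diphosphate, where the pathway branches to dolichol, ubiquinone and the lipid anchors of prenylated proteins. *FDFT1* commits farnesyl diphosphate to sterols by making squalene, *SQLE* oxidises squalene, *LSS* closes the rings to lanosterol, and *CYP51A1* removes a methyl group of lanosterol. The transcription factors of the SREBP family switch on most of these genes when sterols are scarce. In the mouse, oocytes make little cholesterol of their own and receive it from cumulus cells, and the product of *CYP51A1*, a meiosis-activating sterol of follicular fluid, can make cultured mouse oocytes resume meiosis.

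As deposited, the signal of *FDPS* was about 13.4-fold lower in IVM oocytes. *HMGCS1* and *FDFT1*, which stand before and after *FDPS* in the pathway, had higher deposited values on every IVM array than on any immature array. On a scale set by the poly-A controls, the fall of *FDPS* was larger (log2 difference -4.80). The separation of *HMGCS1* and *FDFT1* was lost on that scale. *SQLE* and *CYP51A1* had values that overlapped between the groups. *MVD* and *LSS* gave no value that varied between arrays. In the comparison of IVM with immature oocytes (limma over all probe sets, adjusted p under 0.0001), 1 of the 12 probe sets was lower, that of *FDPS*, and 0 were higher. The same test called 4.77% of all probe sets lower and 0.937% higher, so a count of 1 among 12 is no result about the enzymes as a group. At an adjusted p under 0.05, 1 of the 12 was lower (12.5% of all probe sets) and 3 were higher (13.4% of all probe sets), the 3 being both varying probe sets of *HMGCS1* and that of *FDFT1*. By the arrays themselves, 1 of the 12 had all IVM arrays below all immature arrays (11.5% of all probe sets) and 3 had all IVM arrays above (10.6%). The median log2 difference of the 5 varying genes was 0.38, against 0.18 over all varying probe sets.

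Several measures moved with the groups beside these genes. Of 14 listed oocyte markers, 9 were matched and all 9 varied. Their mean log2 value was 12.47 to 12.96 on the immature and 9.76 to 11.06 on the IVM arrays. The log2 difference was negative for 6 of them and positive for 3, with a median of -3.15. Of 22 cumulus and granulosa cell markers, 19 were matched and 14 varied, with a mean of 7.45 to 8.91 and 8.50 to 10.14. The markers did not move together: 5 of the 14 had a positive and 9 a negative log2 difference, with a median of -0.45. *FOXL2*, *NR5A1*, *NR5A2*, *LHCGR* and *CD44* were flat on the probe set used. At 0.0001, the cumulus expansion gene *TNFAIP6* rose by 10.86 on its brighter probe set and the KIT ligand gene *KITLG* fell by 0.66 on the log2 scale. The dimmer *TNFAIP6* probe set had a difference of 2.71 and did not pass (adjusted p = 0.0011 from limma). All 9 theca and stroma markers were matched and 5 varied, with a mean of 6.47 to 8.25 and 7.41 to 9.80. All 6 blood and immune markers were flat. Probe sets for poly-A control transcripts, which are meant to be added to the RNA before amplification, averaged 7.115 on the immature and 8.168 on the IVM arrays. The methods do not state that these transcripts were added. On the immature arrays the control means, 6.93 to 7.37, lay near the array medians of 7.04 to 7.10. Hybridization controls lay between 9.38 and 9.73 on immature replicates 1, 2 and 3 and at 10.75 or above on the other 7 arrays. The part of these measures in the results below was not tested.

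**Figure D1:**
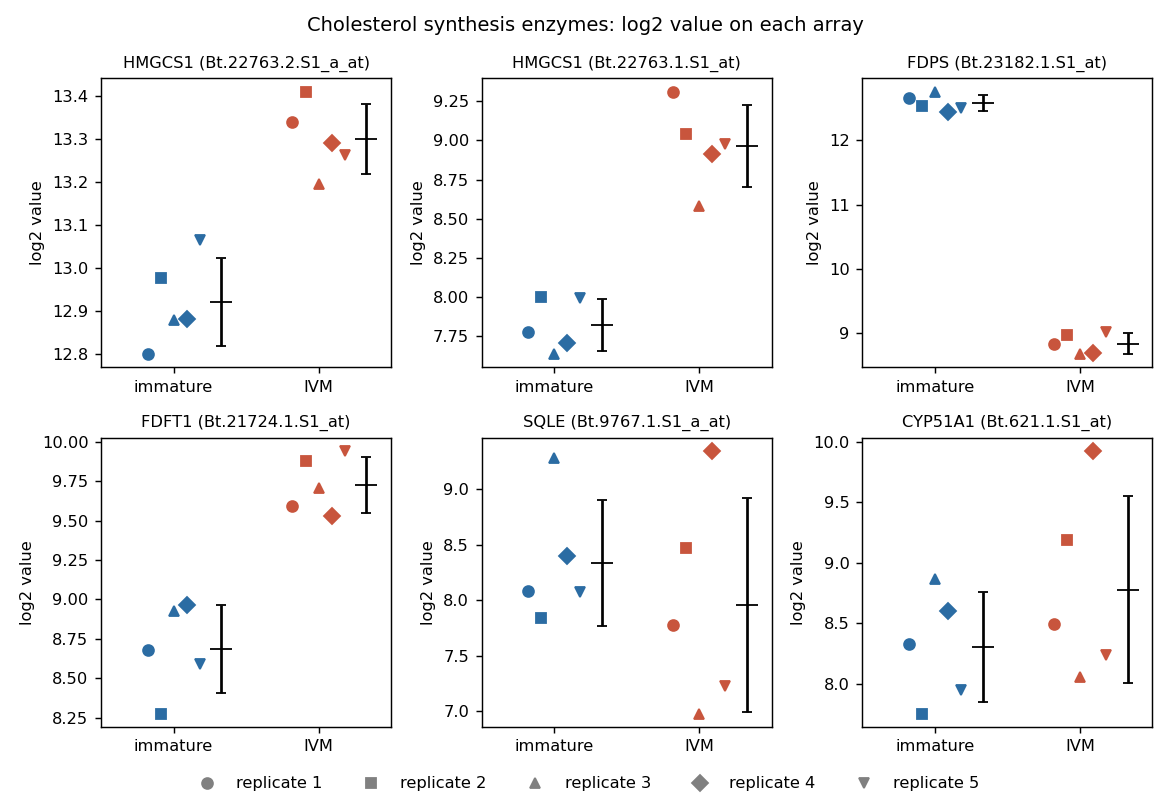
Log2 value of the 6 varying probe sets of cholesterol synthesis enzymes on each array, with immature oocytes in blue and IVM oocytes in red. Symbols give the replicate number, and black lines give the mean and SD of 5 arrays. The axes do not start at 0 and differ between panels. As deposited, the groups lie apart for *HMGCS1* (both probe sets), *FDPS* and *FDFT1* and overlap for *SQLE* and *CYP51A1*.

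*HMGCS1*, the synthase before mevalonate, had 2 probe sets, and both varied. On the brighter of the 2, the immature arrays, replicates 1 to 5, read 12.80, 12.98, 12.88, 12.88 and 13.06 on the log2 scale. The IVM arrays read 13.34, 13.41, 13.19, 13.29 and 13.26. The lowest IVM array was thus above the highest immature array by 0.13. The log2 difference was 0.38 (standard error 0.06, n = 5 per group, adjusted p = 0.00141 from limma), a 1.30-fold change that did not pass at 0.0001. On the dimmer probe set, the immature arrays read 7.78, 8.00, 7.64, 7.71 and 7.99. The IVM arrays read 9.31, 9.04, 8.58, 8.91 and 8.98, all above the immature ones, by at least 0.58. Here the log2 difference was 1.14 (standard error 0.14, adjusted p = 3.71e-04), a 2.21-fold change that did not pass either. Since the groups did not overlap, the difference was necessarily positive in 5 of 5 pairs of equal replicate number on both probe sets.

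The dimmer probe set of *HMGCS1* moved by 0.76 more than the brighter one (standard error 0.11), a comparison chosen after the values were seen and given as a description. In a test restricted to the most variable probe sets, as many as the study kept as informative, the dimmer probe set passed (adjusted p = 3.90e-05), but not with the replicate number as a block (adjusted p = 2.02e-04). When the arrays were centred on the poly-A controls, a scaling that lowers every log2 difference by 1.05, the brighter probe set turned to -0.67 and the dimmer one stayed at 0.09.

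*MVD* was measured by a single probe set, which stood at 7.71 on all 10 arrays. The summarisation used by the authors returns nearly the same value everywhere when the probes of a set have no signal in common, so such a value gives neither a level nor a difference. *LSS*, the cyclase that makes lanosterol, had 3 probe sets of this kind, at 7.56, 7.21 and 6.96. So did *FDFT1* with 2 of its 3 probe sets, at 6.84 and 6.40. In all, 6 of the 12 probe sets were flat and 6, of 5 genes, varied. Of the 24016 probe sets on the array, 14556 were flat and 9460 varied.

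*FDPS*, the branch point enzyme, gave the widest separation among these enzymes. The immature arrays read 12.66, 12.54, 12.76, 12.44 and 12.51 (12.58 ± 0.13, SD, n = 5). The IVM arrays read 8.83, 8.97, 8.67, 8.69 and 9.02 (8.84 ± 0.16, SD, n = 5). The highest IVM array lay 3.42 below the lowest immature array, many times the spread within either group. This log2 difference of -3.75 passed the test with a standard error of 0.09 (limma, adjusted p = 6.16e-08). The 5 differences between arrays of equal replicate number ran from -4.09 to -3.49.

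The call of *FDPS* held without any 1 of the 10 arrays (adjusted p from 5.52e-07 to 1.12e-06). With the replicate number, taken as the day of collection, as a block, its adjusted p was 5.23e-04, and no probe set of the array passed (smallest adjusted p = 1.76e-04). Among the most variable probe sets, the blocked test gave *FDPS* an adjusted p of 1.49e-06. Immature replicates 4 and 5, whose hybridization controls were at the level of the IVM arrays, differed from the IVM arrays by -3.64 (adjusted p = 2.44e-04). Centred on the poly-A controls, the difference of *FDPS* was -4.80, so the size of its fall depends on the scale.

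*FDFT1*, the squalene synthase that uses the product of *FDPS*, lay on the other side. Its varying probe set read 8.68, 8.28, 8.93, 8.97 and 8.59 on the immature arrays. On the IVM arrays it read 9.59, 9.88, 9.70, 9.53 and 9.94. Every IVM array was above every immature array, by at least 0.56. The log2 difference was 1.04 (standard error 0.15, adjusted p = 9.17e-04 from limma), a 2.06-fold change that missed the threshold of 0.0001, and centred on the poly-A controls it was -0.01. As the deposited groups did not overlap, the deposited difference was necessarily positive in 5 of 5 pairs, from 0.56 to 1.60.

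*SQLE* and *CYP51A1* varied more within groups than between them. *SQLE* read 8.09, 7.84, 9.28, 8.40 and 8.07 on the immature arrays. It read 7.78, 8.47, 6.98, 9.35 and 7.23 on the IVM arrays, a range that took in the whole immature range. Its log2 difference was -0.38 (standard error 0.50, 95% confidence interval -1.52 to 0.77, adjusted p = 0.666 from limma), which allows a change of over 2-fold downwards. *CYP51A1* read 8.33, 7.75, 8.86, 8.60 and 7.95 on the immature arrays. It read 8.49, 9.19, 8.05, 9.93 and 8.24 on the IVM arrays, and IVM replicates 2 and 4 alone were above all immature arrays. Its log2 difference was 0.48 (standard error 0.40, 95% confidence interval -0.44 to 1.40, adjusted p = 0.452), and it was positive in 4 of 5 pairs. Centred on the poly-A controls, the difference of *CYP51A1* turned to -0.57 (adjusted p = 0.0709) and that of *SQLE* was -1.43 (adjusted p = 0.00164).

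Within each group, these 2 genes put the arrays in the same order. From high to low, both ranked the immature replicates 3, 4, 1, 5 and 2 and the IVM replicates 4, 2, 1, 5 and 3. Of the 9459 other probe sets that varied, 147 had this order in the immature and 343 in the IVM group, and 5 had it in both, *CYP51A1* among them. The order was noticed after the values were seen and is given as a description. The mean of the cumulus and granulosa markers ranked the immature replicates 4, 3, 1, 5 and 2 and the IVM replicates 4, 2, 3, 1 and 5. The highest 2 arrays of each group and the lowest immature array were thus shared with *SQLE* and *CYP51A1*, while IVM replicate 3 was lowest for the enzymes and in the middle for the markers. The mean of the theca and stroma markers ranked the arrays of both groups as the cumulus and granulosa mean did. The part of either set of markers in the order of the enzymes was not tested. *FDPS* had its highest immature value on replicate 3 and its lowest on replicate 4, and so did not share this order.

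**Figure D2:**
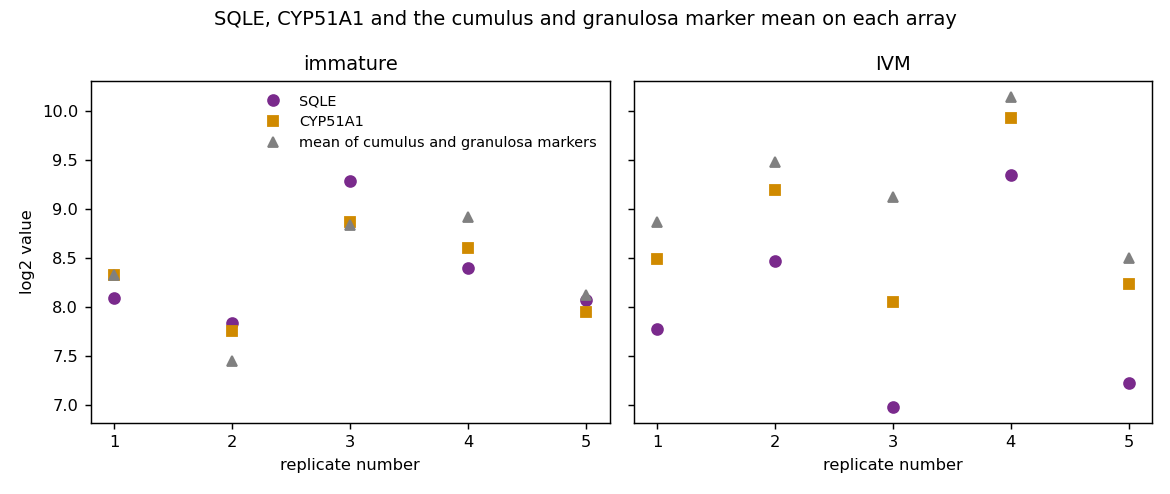
Log2 value of *SQLE* (circles) and *CYP51A1* (squares) and the mean log2 value of 14 varying cumulus and granulosa markers (triangles) on the immature arrays (left) and the IVM arrays (right), placed by replicate. The 2 enzymes are highest on immature replicate 3 and IVM replicate 4 and lowest on immature replicate 2 and IVM replicate 3.

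The other enzymes of the pathway also differed in direction among themselves. Of 14 listed, 8 were matched and 4 varied, while *MVK*, *TM7SF2*, *MSMO1* and *DHCR7* were flat. None of the 4 passed at 0.0001, and at 0.05, 3 were lower and 1 was higher. Since a flat probe set cannot be called, the share over the varying probe sets alone is given beside the lists of varying genes, and at 0.05 it was 31.7% lower and 34% higher. *ACAT2*, the cytosolic thiolase that acts before *HMGCS1*, read 10.82 ± 0.16 (SD, n = 5) before and 9.27 ± 0.31 after maturation, a log2 difference of -1.55 (adjusted p = 1.29e-04 from limma). It passed among the most variable probe sets (adjusted p = 7.71e-06). *NSDHL*, which acts after *CYP51A1*, had a log2 difference of -1.10 (adjusted p = 0.00297), and *PMVK*, a kinase of the mevalonate part, one of -0.24 (adjusted p = 0.0210). *EBP*, a sterol isomerase near the end of the pathway, had a small but even difference, from 7.97 ± 0.06 to 8.35 ± 0.06 (log2 difference 0.39, adjusted p = 1.22e-04), which turned to -0.67 on the poly-A scale. The median log2 difference of the 4 genes was -0.67, against 0.18 over all varying probe sets. As deposited, *ACAT2* and *HMGCS1*, and again *FDPS* and *FDFT1*, thus had differences of opposite sign, as the plot in pathway order shows, while on the poly-A scale the dimmer probe set of *HMGCS1* alone stayed above 0.

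**Figure D3:**
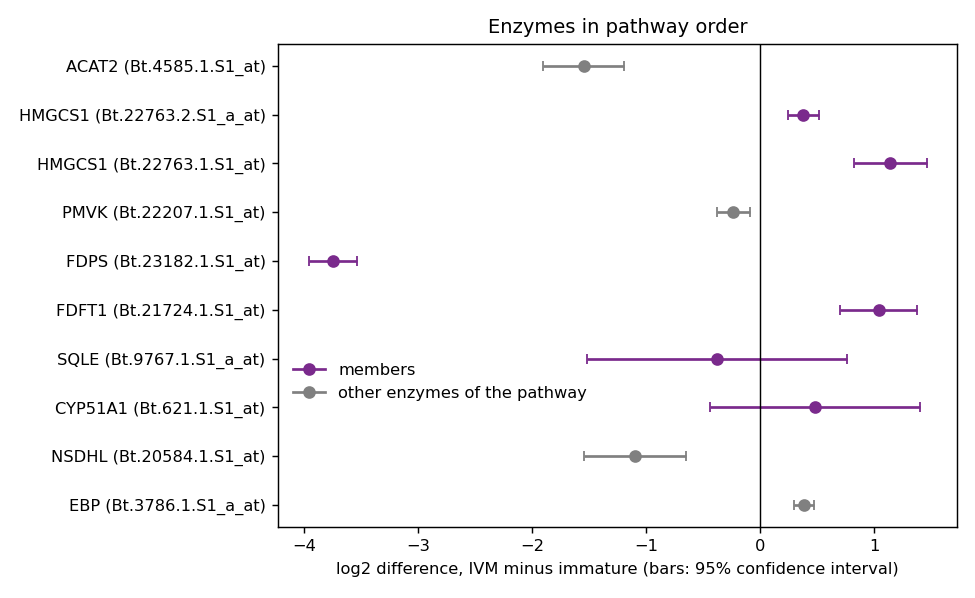
Log2 difference, IVM minus immature, of each varying probe set of the cholesterol synthesis pathway from its start (top) to its end, with 95% confidence intervals from limma. Genes described here as members are in purple and other enzymes of the pathway in grey. *ACAT2*, *FDPS* and *NSDHL* lie at -1.55, -3.75 and -1.10, and both probe sets of *HMGCS1*, *FDFT1* and *EBP* lie above 0 as deposited, of which the dimmer *HMGCS1* probe set alone stays above 0 on the poly-A scale.

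Farnesyl diphosphate, the product of *FDPS*, is also used outside sterol synthesis. Of 18 genes of this isoprenoid branch, 14 were matched, 8 varied, 4 fell at 0.0001 and 0 rose. Over the varying probe sets alone, 12.1% fell and 2.38% rose at this threshold. The median log2 difference of the 8 was -1.27, against 0.18 over all varying probe sets. *PDSS1*, which builds the side chain of ubiquinone, was at 10.34 ± 0.23 (SD, n = 5) in immature oocytes and fell by 3.48 log2 units to 6.86 ± 0.12 (limma, adjusted p = 2.49e-07). *GGPS1*, which extends farnesyl to geranylgeranyl diphosphate, fell by 2.39, from 9.37 ± 0.22 to 6.98 ± 0.16 (adjusted p = 2.55e-06). *FNTA*, a subunit of the enzymes that attach farnesyl and geranylgeranyl groups to proteins, fell by 1.85 (adjusted p = 6.05e-06), and *DOLK*, the dolichol kinase, fell by 1.47 (adjusted p = 1.09e-06). Each of *PDSS1* and *DOLK* also had a flat probe set, at 6.98 and 6.75. *PDSS2*, the partner of *PDSS1*, had a log2 difference of -1.07 and did not pass (adjusted p = 2.06e-04). *ZMPSTE24*, a protease that trims farnesylated proteins, had one of 0.99 (adjusted p = 0.00270), and *NUS1*, a subunit of the enzyme that makes the dolichol chain, 0.87 (adjusted p = 0.00139). Both of these differences turned negative on the poly-A scale (-0.06 and -0.19). The differences of *PDSS1*, *GGPS1*, *FNTA* and *DOLK* were -4.53, -3.44, -2.90 and -2.52 on that scale. A dimmer varying probe set of *NUS1* had a difference of 1.08 (adjusted p = 0.00371 from limma), above the 1.05 that this scale takes away. With the replicate block over all probe sets, none of the 4 passed (adjusted p from 2.94e-04 to 0.00157), and among the most variable probe sets all 4 passed with the block (adjusted p from 1.28e-06 to 4.00e-05).

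**Figure D4:**
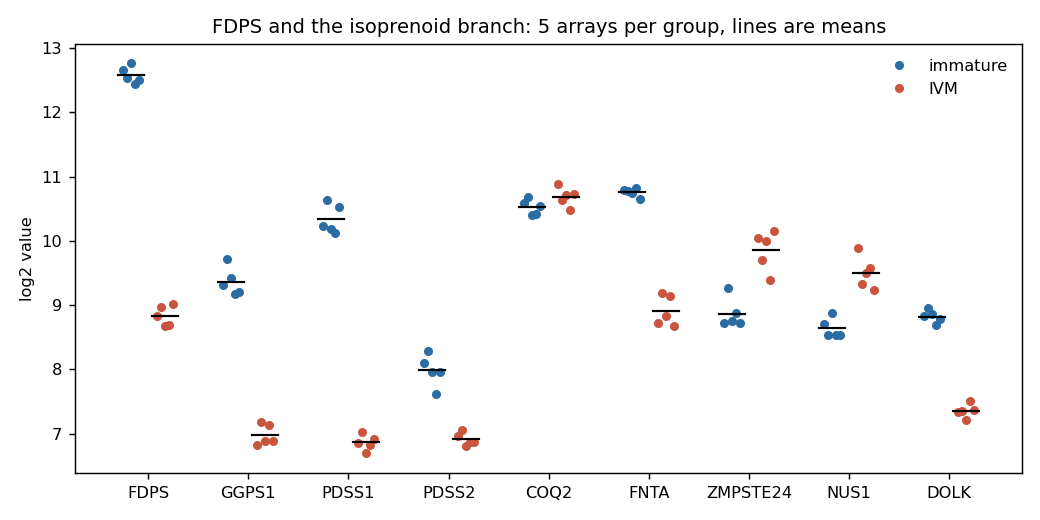
Log2 value of *FDPS* and of the 8 varying genes of the isoprenoid branch on the 5 immature (blue) and 5 IVM (red) arrays, with the group means as lines. Levels are not comparable between genes, since probe sets differ in brightness. *FDPS*, *GGPS1*, *PDSS1*, *PDSS2*, *FNTA* and *DOLK* lie lower on all IVM arrays. *ZMPSTE24* and *NUS1*, drawn from the brightest probe set of each gene, lie higher as deposited but not on the poly-A scale.

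Of 15 genes of SREBP control, 10 were matched and 6 varied, and 0 of the 6 passed at 0.0001. *SREBF2*, the main SREBP factor of the cholesterol genes, was at 8.15 ± 0.04 (SD, n = 5) and 8.20 ± 0.02 (adjusted p = 0.117 from limma), and *SREBF1* and *SCAP* were flat. *INSIG2*, which holds the SREBP complex in the endoplasmic reticulum, differed by 1.22 (adjusted p = 6.25e-04) on its brightest probe set and by 0.57 and -0.48 on the other 2, so its probe sets did not share a direction. Among the most variable probe sets the brightest passed without the block (adjusted p = 5.70e-05) and not with it (adjusted p = 2.39e-04). *INSIG1*, a target of the SREBP factors with the same role, had a difference of 0.33 (adjusted p = 0.0320), and *NFYC*, a subunit of a factor that binds beside them, 0.43 (adjusted p = 0.227) on its brighter probe set and -0.41 on the other. The differences of the 6 ran from 0.05 to 1.22 with a median of 0.36, and on the poly-A scale that of *INSIG2* alone stayed above 0, at 0.17.

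Of 39 genes of sterol uptake, transport, storage and export, 27 were matched and 18 varied. *ABCG8*, a subunit of a sterol exporter, was at 8.63 ± 0.16 (SD, n = 5) in immature oocytes, fell by 2.49 log2 units to 6.14 ± 0.22 (limma, adjusted p = 1.86e-06) and was the only 1 of the 18 to pass at 0.0001. With the replicate block it had an adjusted p of 8.34e-04 over all probe sets and of 5.34e-06 among the most variable ones. On the poly-A scale its difference was -3.54. *STAR*, which carries cholesterol into mitochondria, had a difference of -1.19 (adjusted p = 0.00306). *CAV1*, a coat protein of caveolae, had a difference of 4.30 (adjusted p = 8.47e-04), with an SD of 0.14 in immature and 1.34 in IVM oocytes. Its other probe set was flat, at 6.38. *TSPO*, a cholesterol-binding protein of the mitochondrial outer membrane, had one of 3.45 (adjusted p = 6.27e-04). Among the most variable probe sets *TSPO* passed without and with the block (adjusted p = 2.63e-05 and 6.37e-05), *CAV1* passed without it alone (adjusted p = 3.71e-05 and 1.22e-04), and *NPC2*, which binds cholesterol in lysosomes, with it alone (adjusted p = 2.17e-04 and 3.53e-05). *TSPO* ranked the arrays of both groups exactly as the mean of the cumulus and granulosa markers did. So did *SCARB1* and *HSD3B7* of the same list, which did not pass even at 0.05. Their differences were 0.93 and 0.24 (limma, adjusted p = 0.181 and 0.222). The mean of the theca and stroma markers had this order too, and how many other probe sets had it was not counted. The part of either set of markers in the difference of *TSPO* was not tested. At an adjusted p under 0.05, 4 of the 18 were lower and 7 higher in IVM oocytes, against 31.7% and 34% of the varying probe sets. The median log2 difference of the 18 was 0.46.

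The genes whose profile was most like that of each enzyme over the 10 arrays were also determined. Likeness was measured by the root mean square distance between log2 profiles, each centred on its own mean. The profiles were not scaled, so those that vary little can lie near each other. For *FDPS* they were *PDLIM2* at 0.0858 and *PTCD3* at 0.115, with log2 differences of -3.66 and -3.68. For the brighter probe set of *HMGCS1*, the only one compared, they were *ACTR3* (0.0492) and *TXNDC9* (0.0546). For *FDFT1* they were *TMED4* (0.138) and *PYCR3* (0.158). The nearest profiles to *CYP51A1* were those of *IPO7* (0.198) and *SEC11A* (0.213). *SQLE* had no profile as near, with *TMEM254* at 0.368 and *SPTSSA* at 0.384.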

How the data were processed

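RNA of 5 pools of immature and 5 of IVM oocytes was hybridized to 10 Affymetrix bovine arrays. Scans were quantified by the authors in GCOS, quantile normalized and summarised by FARMS, and each deposited value is the log2 level of 1 probe set on 1 array. Tool versions are not given in the sources used here. Gene symbols came from the platform annotation, updated through RefSeq (assembly ARS-UCD2.0), and 13292 of 24016 probe sets had a single gene. The 112 control probe sets were not tested.

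IVM was compared with immature with lmFit and eBayes of limma 3.58.1 (R 4.3.3), without a block, adjusting p-values by Benjamini-Hochberg over all 24016 probe sets, at the study's false discovery rate of 0.0001. The prior had 0.103 degrees of freedom, against 2.51 when the fit was restricted to the most variable probe sets, as many as the study called informative. A probe set counted as flat, and was not called, where its values spanned less than 0.01. This condition was added after 19 such probe sets had passed. The fit was tested on simulated data. Precision is limited by the number of arrays. The brightest probe set stood for a listed gene, and figures and summaries were made with Python 3.11.15.

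The members, lists and tests were chosen with earlier results of these data known. Named are all members, the varying enzymes of the pathway, and in each other pathway list the genes that passed and up to 2 of the largest rises and falls. Marker genes are given by counts, and further genes are named for their closeness to a member or chosen after their values were seen. The methods make replicates days of collection, so equal numbers were taken as 1 day. The deviations of equal-numbered arrays from their group means had r = 0.143, -0.347, 0.0872, 0.672 and 0.359 for replicates 1 to 5, over the 9460 varying probe sets, and the immature or IVM array of another number correlated better for replicates 1, 2, 3 and 5, so that replicate 4 alone showed this pairing. Nothing but the day is stated to separate the pools, so p-values measure the spread between pools.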

Additional observations from a re-analysis of the deposited data

How the results depend on the processing

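Leaving out 1 array at a time gave 1 lower and 0 higher member probe sets each time, and over all probe sets 690 to 1085 were lower and 65 to 295 higher, against 1145 and 225 with all arrays. The replicate block left 0 lower and 0 higher calls in the whole comparison, and 0 member probe sets lower. Before adjustment, limma with this block had 4074 lower and 4731 higher of 24016 at p under 0.05, flat probe sets included. Of the 6 varying member probe sets, 4 had an unadjusted p under 0.05. That of *FDPS* was lower, and both of *HMGCS1* and that of *FDFT1* were higher. The share over the varying probe sets alone was not counted, so this count is no result about the members as a group. Immature replicates 4 and 5 against the IVM arrays gave 4 lower and 0 higher, and 0 members lower. Both settings ended the call of *FDPS* (adjusted p = 5.23e-04 and 2.44e-04) with nearly the same difference (-3.75 and -3.64). Testing just the most variable probe sets gave 744 higher and 1 member higher, the dimmer *HMGCS1* probe set, and 3 higher genes of the related lists against 0. The block on the same probe sets gave 1189 lower and 307 higher, with 1 member lower and 0 higher. Testing the varying probe sets alone gave 685 higher and 1 member higher. Centring on array medians gave 382 higher. The cause of these shifts was not tested. With arrays centred on poly-A controls there were 4387 lower, and this turned the brighter *HMGCS1* probe set (-0.67), *FDFT1* (-0.012) and *CYP51A1* (-0.57). At an adjusted p under 0.05 there were 2997 lower and 3218 higher, and 3 member probe sets, of 2 genes, were higher. Of the 36 varying genes of the related lists, 12 were lower and 12 higher, against 5 and 0 at 0.0001. Over the varying probe sets alone, 31.7% were lower and 34% higher at 0.05, and 12.1% and 2.38% at 0.0001. The counts at 0.05 are thus near these shares and no result about the lists. Counting flat probe sets too, an alternative chosen after seeing the data, gave 1155 lower and 234 higher. A trended and robust variance prior moved no count of calls by over 1.5 times. A planned search for motifs in promoters was not run.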
